A study of Mus musculus with 3 samples.

Results

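The 10 genes examined here were Tgfb1, Tgfbr1, Tgfbr2, Tgfbi, Smad3, Smad7, Skil, Id1, Id2 and Id3. They were chosen by name as ligand, receptor, SMAD and ID genes of the TGF-beta pathway, with earlier results of these data known. They were followed among 22238 genes listed for all 3 libraries of the series. Each library was 1 pool of cells sorted from adult female C57BL/6J mice with experimental autoimmune encephalomyelitis (EAE), in which immunization leads to CNS inflammation as a model of multiple sclerosis. The mice were wild type (WT in the sample titles) and were immunized with myelin oligodendrocyte glycoprotein peptide in complete Freund's adjuvant. They also received 250 ng pertussis toxin at 2 and 24 hours, and cells were taken at days 14 to 15. The populations were bone marrow monocytes (BM-Mono; Ly6C high, Ly6G-, CD11c-), spinal cord monocytes (SC-Mono; CD64+, Ly6C high, Ly6G-) and spinal cord monocyte-derived antigen-presenting cells (SC-APC; CD64+, Ly6C low or negative, Ly6G-), all CD45+ CD11b+. No library came from mice without EAE, so all 3 populations share the disease and the adjuvant. Spinal cord tissue was digested with collagenase and DNase and passed over a density gradient, while bone marrow was flushed and enriched with a kit. The pools also came from different numbers of mice. Tissue and handling therefore cannot be told apart in comparisons with BM-Mono.

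TGF-beta is secreted in a latent complex and has to be released before it binds TGFBR2, which then phosphorylates TGFBR1. The receptor complex phosphorylates SMAD2 and SMAD3, which enter the nucleus with SMAD4. SMAD7 blocks the receptor and SKIL (SnoN) represses SMAD complexes, and both are classical feedback products of the pathway. The ID proteins are helix-loop-helix proteins that cannot bind DNA and hold E proteins away from it, and their genes are well known targets of the related BMP ligands. In the central nervous system (CNS), TGF-beta is best known for maintaining microglia.

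With 1 library per population no test of the populations was possible, so no p-value is given and every interval covers counting error only. Cells of many mice were pooled, and the spread between mice cannot be seen. In bulk RNA, fewer cells of a type and less RNA per cell cannot be told apart. Levels are given as TPM (a transcript share normalized for length), rescaled to the same sum over the common genes, and as estimated reads. Fold changes were taken on reads scaled by size factors, with a 98% interval. To be called higher or lower, a gene needed an interval wholly beyond a 2-fold change and, in either library compared, a rescaled TPM over 3.

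The libraries held 26116588 to 32115707 reads over the common genes. The APC values covered 22242 genes and the monocyte values 54432, so the APC reads were assigned on another transcript set, and fold changes per effective length are given where they differ. The descriptive label of the APC sample names the bone marrow, while its title and tissue label name the spinal cord. The 4 genes of granulocyte-monocyte progenitors, cells of the bone marrow, summed to 630.3 TPM in BM-Mono, 62.5 TPM in SC-Mono and 22.9 TPM in SC-APC. The 7 neutrophil markers summed to 998, 187 and 411 TPM in the same order, higher in SC-APC than in SC-Mono. All 7 monocyte markers were above 3 TPM in every library. The 11 microglia markers summed to 19.3, 203 and 508 TPM in BM-Mono, SC-Mono and SC-APC, with Sall1 and Slc2a5 at 0 reads in the bone marrow. The 11 endothelial markers summed to 18.9, 105 and 66.5 TPM in the same order, with Cldn5, Tek and Emcn at 0 reads in the bone marrow.

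All 10 genes were lowest in BM-Mono by TPM. From BM-Mono to SC-Mono, 7 of the 10 were called higher and 0 lower, where 13.8% of all active genes were called higher and 10.7% lower. Id3, Skil and Smad7 had the largest fold changes, and Tgfb1, Tgfbr2 and Smad3 stayed under the threshold of the call. From SC-Mono to SC-APC, 0 were called higher and 2 were called lower, Id1 and Id3, where 1.93% of active genes were called higher and 1.7% lower. From the same libraries, the study had already placed Id1 and Id3 with Atf3, raised in SC-Mono and reduced in SC-APC. The median log2 fold change of the 10 genes was 1.74 for the first step and -0.24 for the second, where all active genes had -0.15 and -0.04. When variation between libraries was assumed and added to the counting error, at a CV of 0.4, 3 of the 7 calls of the first step were left, those of Smad7, Skil and Id3, and with 0.2 Id2 was called as well. Both calls of the second step were lost with 0.2.

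**Figure D1:**
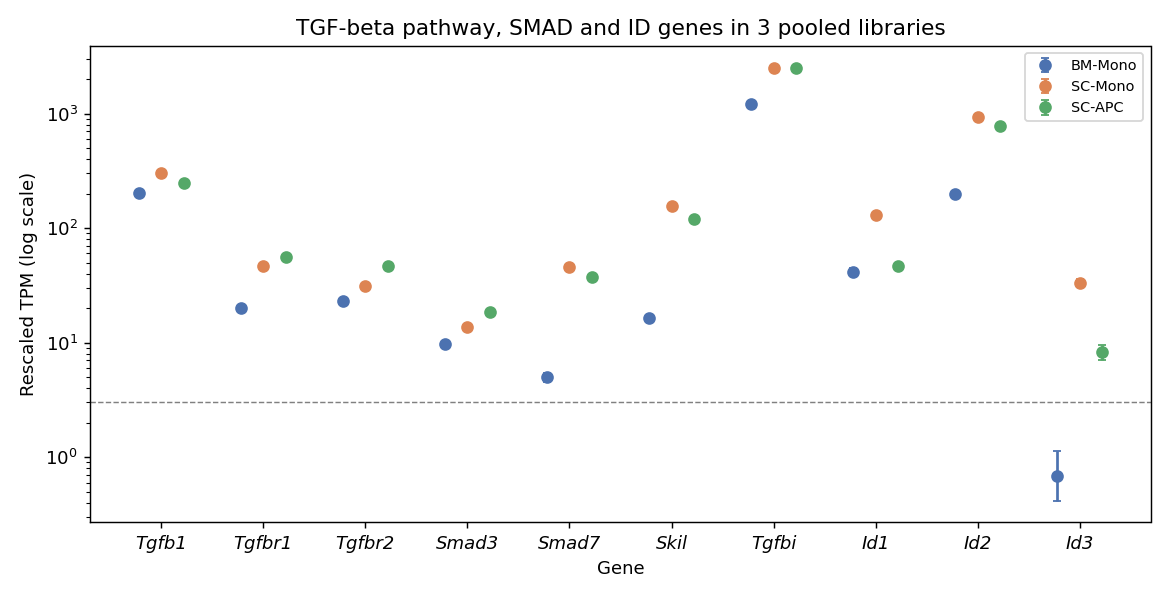
Rescaled TPM of the 10 genes (y axis, log scale) in BM-Mono, SC-Mono and SC-APC, with 95% Wilson intervals of counting error that are often smaller than the points, and a dashed line at 3 TPM. Each gene is lowest in BM-Mono, and Id3 in that library, at 0.689 TPM, is the 1 point under the line.

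Promoter sequence was looked up for the receptors and for Tgfbi, because these 3 genes form the start and a classical end of the pathway. RefSeq promoters on GRCm38.p6, reaching from 250 bases before to 50 bases after the RefSeq start, matched 7 of the 10 symbols with 8 entries. Only bases upstream of the start and outside every exon of GENCODE M21 are printed, 5′ to 3′ on the strand of the gene. Capitals mark CAGAC, the short SMAD box, and GGCGCC, a GC-rich SMAD motif, each searched on both strands, so that CAGAC can also appear as GTCTG.
Tgfbr1, chr4:47352972-47353221, plus strand: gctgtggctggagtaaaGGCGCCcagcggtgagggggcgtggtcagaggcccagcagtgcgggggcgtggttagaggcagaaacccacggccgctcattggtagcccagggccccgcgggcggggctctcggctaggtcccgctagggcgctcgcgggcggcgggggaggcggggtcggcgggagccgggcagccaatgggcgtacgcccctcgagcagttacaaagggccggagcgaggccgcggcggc
Tgfbr2, chr9:116175364-116175613, minus strand: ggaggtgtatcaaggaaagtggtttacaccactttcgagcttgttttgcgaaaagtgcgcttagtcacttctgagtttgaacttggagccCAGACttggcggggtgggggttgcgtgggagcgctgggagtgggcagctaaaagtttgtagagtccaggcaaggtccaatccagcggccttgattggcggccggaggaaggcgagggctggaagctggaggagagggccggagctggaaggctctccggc
Tgfbi, chr13:56609336-56609522, plus strand: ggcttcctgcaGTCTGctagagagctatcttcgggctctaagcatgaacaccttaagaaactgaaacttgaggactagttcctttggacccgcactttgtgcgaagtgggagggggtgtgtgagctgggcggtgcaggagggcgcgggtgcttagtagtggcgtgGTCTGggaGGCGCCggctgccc

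The Tgfbi stretch of 187 bases held CAGAC 239 and 85 bases before the RefSeq start and GGCGCC 77 bases before it, with no overlap. This RefSeq start lies inside the gene as GENCODE M21 places it, and the printed stretch ends upstream of the GENCODE start. Tgfbr1 held GGCGCC 233 bases before its start, and Tgfbr2 held CAGAC 160 bases before its start. A second RefSeq start of Tgfbr1, inside the gene, held CAGAC 203 bases upstream. Among the ID genes, Id3 held CAGAC 167 and 68 bases before its RefSeq start, and Id2 held GGCGCC 231 bases before its RefSeq start. For Id2 and Id3, the RefSeq start and these matches lie inside the gene as GENCODE M21 places it. No match to either motif was found in the windows of Tgfb1 and Smad3. Of 32851 promoters of the same length, 49.6% held CAGAC and 11.9% held GGCGCC, so these matches are a description of the letters and not of sites in use.

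Tgfb1 (ENSMUSG00000002603.15), on chromosome 7 of GRCm38 from 25687002 to 25705077, encodes the main TGF-beta ligand of leukocytes. Its level was 201 TPM in BM-Mono (95% bounds 196 to 205), 301 TPM in SC-Mono (295 to 307) and 248 TPM in SC-APC (243 to 253). The ligand gene was thus abundant in every library, ranking 727, 531 and 552 of 22238 genes by TPM. Its log2 fold change was 0.78 (98% bounds 0.73 to 0.83) from BM-Mono to SC-Mono and -0.18 (-0.22 to -0.13) from SC-Mono to SC-APC, and it was called in neither step. Platelets store TGF-beta, and the 5 platelet markers summed to 27.3, 0.980 and 0.693 TPM in BM-Mono, SC-Mono and SC-APC.

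Of 12 TGF-beta, activin and GDF ligand genes, 4 were above 3 TPM in BM-Mono or SC-Mono, namely Tgfb1, Inhba, Gdf15 and Gdf3. From BM-Mono to SC-Mono 2 of these were called higher and 0 lower, beside 13.8% and 10.7% of all active genes, and Gdf3, like Tgfb1, was not called, with 3.53 and 3.26 TPM. Inhba, which encodes the subunit of activin A, rose from 1.03 TPM in BM-Mono to 323 TPM in SC-Mono, by 8.31 on the log2 scale (98% bounds 7.996 to 8.66). In SC-APC it was 367 TPM, 0.17 above SC-Mono on that scale. Inhba was therefore above Tgfb1 by TPM in both spinal cord libraries, while in the bone marrow it was far below. Gdf15, a stress-induced cytokine, had 2, 147 and 202 reads in BM-Mono, SC-Mono and SC-APC, a log2 fold change of 6.27 (98% bounds 4.59 to 8.90) in the first step. Of the 11 BMP ligand genes, 0 were above 3 TPM in any library, and the highest value, that of Bmp2 in SC-APC, was 0.769 TPM.

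Latent TGF-beta is stored and released by a further set of proteins. Of 13 such genes, 7 were active (above 3 TPM) in BM-Mono or SC-Mono, and of these 4 were called higher in the first step and 0 lower, where 13.8% and 10.7% of all active genes were called. Thbs1, which encodes thrombospondin-1, an activator of latent TGF-beta, rose from 110 to 1491 TPM and fell to 627 TPM in SC-APC. Its log2 fold changes were 4.23 (98% bounds 4.20 to 4.26) and -1.27 (-1.29 to -1.26). Mmp14, a membrane-bound metalloproteinase, rose from 2.10 to 232 TPM and was 339 TPM in SC-APC. Furin, the protease that cleaves the TGF-beta precursor, rose from 66.6 to 192 TPM, and Ltbp3, a latent TGF-beta binding protein, from 0.315 to 6.67 TPM. Nrros, which anchors latent TGF-beta on myeloid cells, went the other way, with 157, 93.5 and 54.8 TPM in BM-Mono, SC-Mono and SC-APC. It was called lower in SC-APC against BM-Mono, with a log2 fold change of -1.19, and in neither single step. In the same comparison Lrrc32 (GARP), its homologue, was called higher, with 13 reads in BM-Mono and 287 in SC-APC. Ltbp1 was called lower from SC-Mono to SC-APC on 53 and 13 reads. Its effective length changed 13.1-fold between these libraries, so the size of its fold change depends on the length correction. The source of this difference in length was not tested.

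The receptors differed in the size of their change. Tgfbr1 (ENSMUSG00000007613.15), on chromosome 4 from 47353222 to 47414931, encodes the type I receptor kinase. Its level was 20.1 TPM in BM-Mono (95% bounds 19.2 to 20.9), 46.3 TPM in SC-Mono (45.0 to 47.7) and 55.8 TPM in SC-APC (54.4 to 57.3). It was called higher in SC-Mono than in BM-Mono, with a log2 fold change of 1.52 (98% bounds 1.43 to 1.61). From SC-Mono to SC-APC the log2 fold change was 0.18 (0.12 to 0.25) on reads and 0.35 per effective length, under the threshold.

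Tgfbr2 (ENSMUSG00000032440.13), on chromosome 9 from 116084293 to 116175360, encodes the type II receptor that binds the ligand. It stood at 22.9 TPM (95% bounds 22.04 to 23.9) in BM-Mono, 31.1 TPM (30.0 to 32.2) in SC-Mono and 46.6 TPM (45.3 to 47.9) in SC-APC. The log2 fold change was 0.77 (98% bounds 0.68 to 0.87) in the first step and 0.48 (0.40 to 0.56) in the second. Per effective length the second was 0.67 (0.59 to 0.75). Neither step was called on either scale. Over both steps together, Tgfbr2 was called higher in SC-APC than in BM-Mono, with 1.25 (1.17 to 1.34), and Tgfbr1 with 1.70 (1.62 to 1.79). The TPM of Tgfbr1 divided by that of Tgfbr2 was 0.875 in BM-Mono, 1.49 in SC-Mono and 1.20 in SC-APC. The summed microglia markers were 2.50 times as high in SC-APC as in SC-Mono, and the part of microglial RNA in the receptor levels was not tested.

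Of the 15 receptor and co-receptor genes, which include this pair, 9 were active. In the first step 5 were called higher and 0 lower, against 13.8% and 10.7% of all active genes, and 0 were called in the second, against 1.93% and 1.7%. The other 4 were Acvrl1, Eng, Acvr2a and Bambi. Acvrl1 (ALK1), a type I receptor best known from endothelium, had 14.5, 33.6 and 27.9 TPM in BM-Mono, SC-Mono and SC-APC. Eng (endoglin), a co-receptor of ALK1, had 5.20, 14.1 and 17.9 TPM, and Bambi, a decoy receptor without a kinase, had 1.91, 10.3 and 7.90 TPM. Both Acvrl1 and Eng are also high in endothelial cells, whose markers moved in the same direction in the first step, and the part of such cells was not tested. Bmpr2, a BMP type II receptor, and Acvr1b, an activin type I receptor, had log2 fold changes of -0.63 and 0.01 there and were not called.

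Smad3 (ENSMUSG00000032402.12), on chromosome 9 from 63646767 to 63757994, encodes the signal-carrying SMAD that binds DNA. Its level was 9.75 TPM in BM-Mono (95% bounds 9.16 to 10.4), 13.8 TPM in SC-Mono (13.03 to 14.6) and 18.4 TPM in SC-APC (17.4 to 19.4). By reads the order of the spinal cord libraries was the reverse, with 1257 in SC-Mono and 1200 in SC-APC. The log2 fold change from SC-Mono to SC-APC was -0.22 (98% bounds -0.36 to -0.09) on reads and 0.50 (0.36 to 0.63) per effective length, since the effective length of Smad3 was 4710 bases in SC-Mono and 3132 bases in SC-APC. The direction of this step is therefore not determined by these files. In the first step the effective lengths were alike, and the log2 fold change of 0.80 (0.66 to 0.95) was not called.

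Smad7 (ENSMUSG00000025880.11), on chromosome 18 from 75367529 to 75395935, encodes the inhibitory SMAD. It had 428 reads or 4.98 TPM in BM-Mono (95% bounds 4.53 to 5.48), 3354 reads or 45.6 TPM in SC-Mono (44.1 to 47.2) and 3112 reads or 37.2 TPM in SC-APC (35.9 to 38.5). Both spinal cord populations were thus far above the bone marrow and close to each other. The rise to SC-Mono was 10.9-fold, a log2 fold change of 3.45 (98% bounds 3.28 to 3.62), and the second step was -0.26 (-0.35 to -0.18).

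Skil (ENSMUSG00000027660.16), on chromosome 3 from 31095058 to 31122577, encodes the SMAD co-repressor SnoN. Its level was 16.4 TPM in BM-Mono (95% bounds 15.7 to 17.1), 156 TPM in SC-Mono (154 to 159) and 121 TPM in SC-APC (119 to 123). The rise in the first step was 11.3-fold, a log2 fold change of 3.49 (98% bounds 3.42 to 3.57). In the second step Skil had -0.55 (-0.59 to -0.51) on reads and -0.29 per effective length, and was not called. Among the 64 genes of the pathway above 3 TPM, Skil and Smad7 were each other's nearest gene by the log2 fold changes of both steps, at a distance of 0.28, which rests on 3 libraries. They were not the closest pair, and Tgfbr1, for example, lay 0.11 from Ski. The TPM of Smad7 went from 0.511 times that of Smad3 in BM-Mono to 3.31 times in SC-Mono and 2.02 times in SC-APC. The difference between the last 2 ratios depends on the effective length of Smad3, 4710 bases in SC-Mono and 3132 bases in SC-APC. By reads, Smad7 and Smad3 had 3354 and 1257 in SC-Mono and 3112 and 1200 in SC-APC.

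Of 8 SMAD genes, 7 were active, and 2 of them, Smad7 and Smad6, the inhibitory pair, were called higher in the first step and 0 lower, where the shares of all active genes were 13.8% and 10.7%. With so few SMAD genes, nothing is read from this count about the group. Smad6 had 1.98, 4.94 and 4.09 TPM in BM-Mono, SC-Mono and SC-APC. Smad2 had 53.1, 37.8 and 38.6 TPM, and Smad4, the common partner, had 53.5, 32.4 and 23.6 TPM. Neither was called in the first step, where their log2 fold changes were -0.28 and -0.75. Smad1 (0.11) and Smad5 (-0.50), which carry BMP signals, were not called either. Among 14 SMAD regulators, all active, 6 were called higher in the first step and 1 lower, against the same 13.8% and 10.7%. Tgif1, a co-repressor of SMAD2 and SMAD3, rose from 24.4 to 348 TPM (4.18 on the log2 scale), and its relative Tgif2 from 0.195 to 6.93 TPM. Ski, the paralogue of Skil, rose from 29.5 to 73.5 TPM. Smurf1, a ubiquitin ligase that targets SMADs and receptors, rose from 6.94 to 12.98 TPM, with 1.19 on the log2 scale of reads. Pmepa1, a membrane protein that binds SMADs and is induced by TGF-beta, had 1, 1039 and 1952 reads in BM-Mono, SC-Mono and SC-APC, a log2 fold change of 9.76 (98% bounds 7.77 to 13.27) in the first step. Zfyve9 (SARA), which brings SMADs to the receptor, fell from 24.0 to 4.63 TPM. None of the 14 was called from SC-Mono to SC-APC on reads, where 1.93% of all active genes were called higher and 1.7% lower. Pmepa1, with 0.75 on reads and 1.49 per effective length in this step, depended on the length correction.

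**Figure D2:**
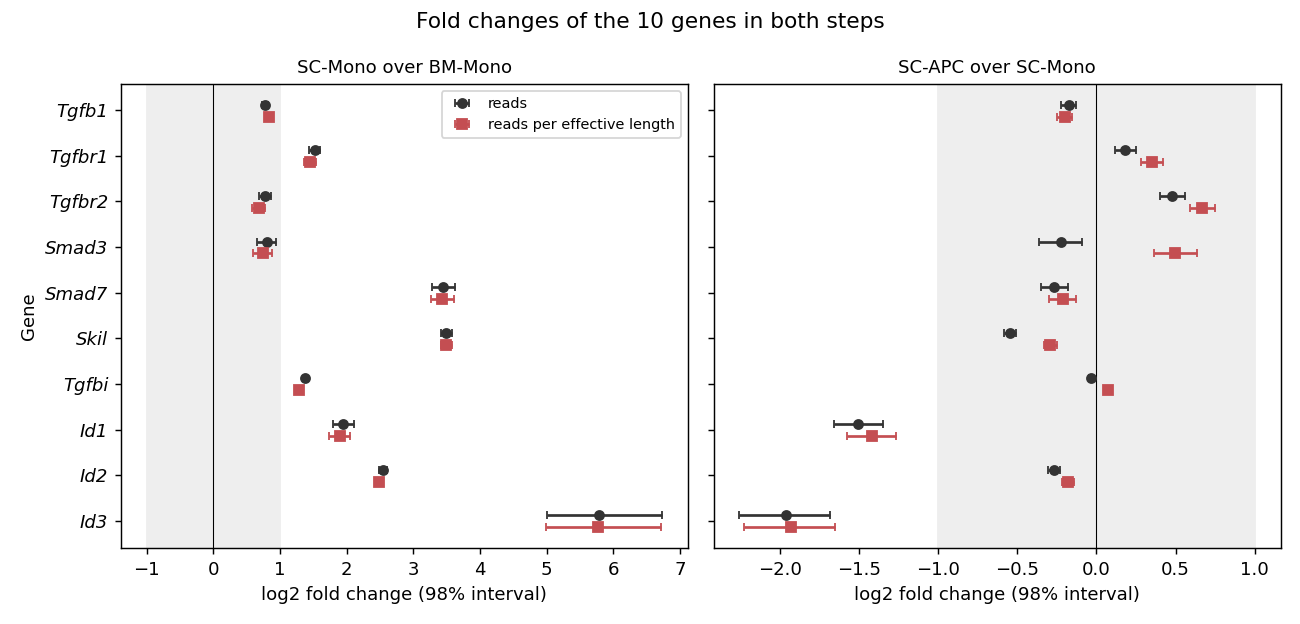
Log2 fold changes of the 10 genes from BM-Mono to SC-Mono (left) and from SC-Mono to SC-APC (right), on reads (circles) and on reads per effective length (squares), with 98% intervals of counting error and the band of less than a 2-fold change in grey. Id1 and Id3 lie left of the band in the right panel, and Smad3 changes sign between the scales there.

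Tgfbi (ENSMUSG00000035493.10), on chromosome 13 from 56609523 to 56639562, encodes a secreted matrix protein named for its induction by TGF-beta and is strongly expressed by monocytes and macrophages. Its level was 1215 TPM in BM-Mono (95% bounds 1206 to 1225), 2505 TPM in SC-Mono (2490 to 2519) and 2488 TPM in SC-APC (2475 to 2502). It ranked 140, 54 and 49 of 22238 genes and made up 70.3%, 59.7% and 64.7% of the summed TPM of the 10 genes. Tgfbi was called higher in the first step, with a log2 fold change of 1.37 (98% bounds 1.36 to 1.39). In the second it had -0.04 on reads and 0.07 per effective length, so its sign turned between the scales, and the TPM intervals of the spinal cord libraries overlapped.

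Of 14 textbook target genes of TGF-beta, among them Tgfbi, Skil, Smad7 and Pmepa1, 12 were active. From BM-Mono to SC-Mono 9 were called higher and 1 lower, against 13.8% and 10.7% of all active genes, and the median log2 fold change of the 12 was 2.66, against -0.15 over all active genes. Cdkn1a, the cell cycle inhibitor p21, rose from 26.9 to 612 TPM, Junb, an AP-1 subunit, from 345 to 1738 TPM and Klf10, a zinc finger factor, from 91.8 to 163 TPM. Ldlrad4, a membrane inhibitor of SMAD signalling, rose from 1.73 to 8.78 TPM. The gene called lower was Fn1, which encodes the matrix protein fibronectin, at 3706 TPM in BM-Mono, 1333 TPM in SC-Mono and 1401 TPM in SC-APC. All of the 9 are also known to respond to other signals, and the list does not single out TGF-beta. In the second step 0 of these genes were called, where 1.93% of all active genes were called higher and 1.7% lower. Their median was -0.27, against -0.04 over all active genes.

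Id1 (ENSMUSG00000042745.9), on chromosome 2 from 152736251 to 152737410, was highest in SC-Mono. It had 608 reads in BM-Mono, 1686 in SC-Mono and 663 in SC-APC, or 41.5 TPM (95% bounds 38.3 to 44.9), 131 TPM (125 to 137) and 46.2 TPM (42.8 to 49.9). The gene was thus raised in SC-Mono, while the TPM intervals of BM-Mono and SC-APC overlapped. The log2 fold change was 1.95 (98% bounds 1.79 to 2.11) in the first step, called higher, and -1.50 (-1.66 to -1.35) in the second, called lower. Between SC-APC and BM-Mono it was 0.45 (0.26 to 0.64), not called.

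Id3 (ENSMUSG00000007872.3), on chromosome 4 from 136143497 to 136145755, followed the same order at a lower level. It had 15, 617 and 176 reads in BM-Mono, SC-Mono and SC-APC, or 0.689 TPM (95% bounds 0.417 to 1.14), 33.2 TPM (30.7 to 36.0) and 8.21 TPM (7.08 to 9.52). The first step was a rise of 55.1-fold, a log2 fold change of 5.78 (98% bounds 4.999 to 6.73), and the second a fall by 1.96 on the log2 scale (98% bounds -2.25 to -1.68). Unlike Id1, Id3 remained higher in SC-APC than in BM-Mono, with 3.82 (3.005 to 4.79).

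Id1 and Id3 are high in endothelial cells, and the endothelial markers were also highest in SC-Mono. Of the 11, 6 were above 3 TPM there, with Flt1 at 43.1, Vwf at 17.7, Pecam1 at 13.8 and Cldn5 at 11.6 TPM. In SC-APC 4 were above 3 TPM, with Flt1 at 26.8 and Cldn5 at 5.63 TPM. The markers did not fall alike, and Kdr had 1.99 TPM in SC-Mono and 1.87 TPM in SC-APC. Flt1 and Pecam1 were also above 3 TPM in BM-Mono, at 7.06 and 9.66 TPM. From SC-Mono to SC-APC the summed endothelial markers went to 0.631 times their level, and Id1 and Id3 to 0.353 and 0.247 times their TPM. The part of endothelial RNA in the levels of Id1 and Id3 was not tested.

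Id2 (ENSMUSG00000020644.9), on chromosome 12 from 25093799 to 25097140, is needed for the development of dendritic cells and innate lymphocytes and was the most abundant ID gene. It had 197 TPM in BM-Mono (95% bounds 191 to 203), 934 TPM in SC-Mono (920.2 to 948) and 779 TPM in SC-APC (767 to 791). Both spinal cord populations were well above the bone marrow, where Id2 ranked 739 against 188 and 209 of 22238 genes in the spinal cord. The log2 fold change was 2.55 (98% bounds 2.49 to 2.60) in the first step, called higher, and -0.27 (-0.30 to -0.23) in the second, not called. Of 6 markers of conventional dendritic cells, which express Id2, 1, 3 and 5 were above 3 TPM in BM-Mono, SC-Mono and SC-APC. Their sum was 40.8, 21.3 and 28.3 TPM, led in BM-Mono by Flt3, a gene also of progenitors, at 37.8, 3.65 and 6.65 TPM, while the other 5 were lowest in BM-Mono, among them Batf3 at 2.74, 11.7 and 6.34 TPM and Clec9a at 0.108, 4.38 and 7.40 TPM. The 9 markers of T and NK cells summed to 0.820, 48.2 and 73.2 TPM, with 0, 7 and 7 of them above 3 TPM, and Ncr1, which marks NK and some innate lymphoid cells, had 0, 0 and 3 reads. The part of RNA of these cells in the level of Id2 was not tested.

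The ID genes together stood at 239, 1098 and 834 TPM in the 3 libraries, of which Id2 was 82.4%, 85.1% and 93.5%. Their partners, the E protein genes Tcf3, Tcf4 and Tcf12, summed to 75.5, 58.0 and 69.3 TPM, and 0 of these 3 was called in any comparison. Of all active genes, 13.8%, 1.93% and 14% were called higher in the first step, the second step and over both. The shares called lower were 10.7%, 1.7% and 11.8%. The TPM of the ID genes was 3.17 times that of the E protein genes in BM-Mono, 18.9 times in SC-Mono and 12.03 times in SC-APC.

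**Figure D3:**
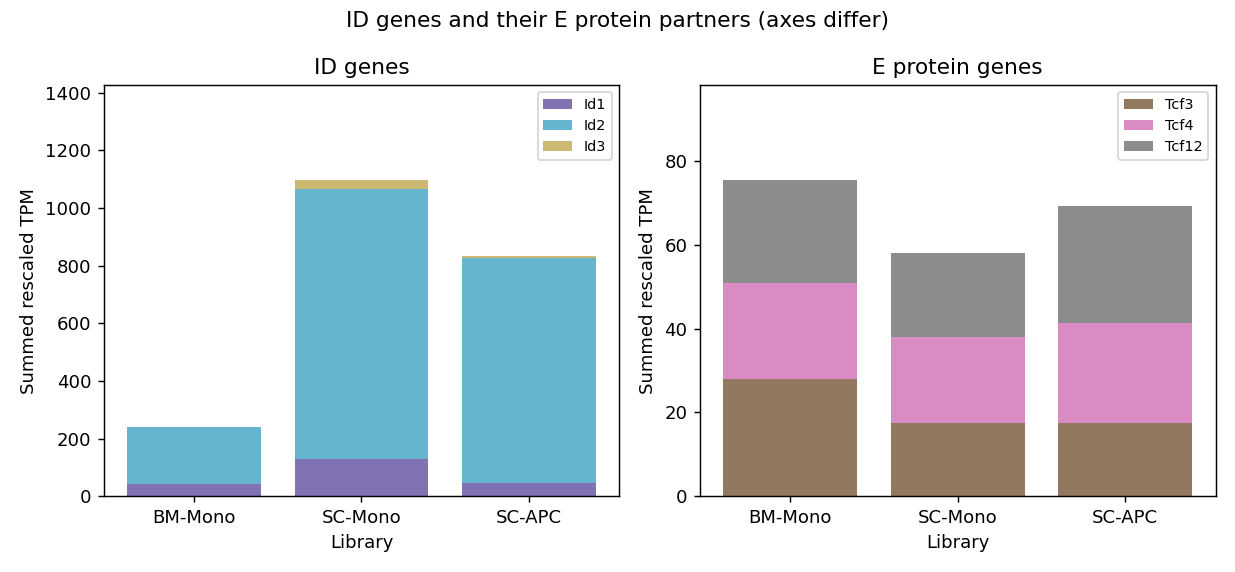
Summed rescaled TPM of Id1, Id2 and Id3 (left) and of Tcf3, Tcf4 and Tcf12 (right) in the 3 libraries, each bar starting at 0 and the axes differing in range. The ID bars reach 239, 1098 and 834 TPM, most of it Id2, and the E protein bars stay between 58.0 and 75.5 TPM.

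Outside the 10 genes, 94 further genes of the pathway lists were followed, and 53 of them were above 3 TPM in BM-Mono or SC-Mono. From BM-Mono to SC-Mono 23 were called higher and 3 lower, which is 43.4% and 5.66% of the active ones, beside 13.8% and 10.7% of all active genes. From SC-Mono to SC-APC 0 were called higher and 2 lower, Thbs1 and Ltbp1. The 2 lower are 3.77% of the active ones, beside 1.93% of all active genes called higher and 1.7% lower. In the TAK1 branch, the SMAD-independent arm, Traf6 was called higher in the first step, from 19.7 to 48.7 TPM, and the other 4 of 5 genes had negative values, among them Map3k7 (TAK1 itself) with -0.78 and Xiap with -1.01. Of the extracellular antagonists, Twsg1 rose from 4.78 to 10.5 TPM and Fstl3, an activin-binding protein, fell from 3.47 to 0.383 TPM. The third comparison, of SC-APC with BM-Mono, shares both its libraries with the steps. It called 7 of the 10 genes higher and 0 lower, beside 14% and 11.8% of active genes, and Tgfbr2 took the place of Id1 among them.

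**Figure D4:**
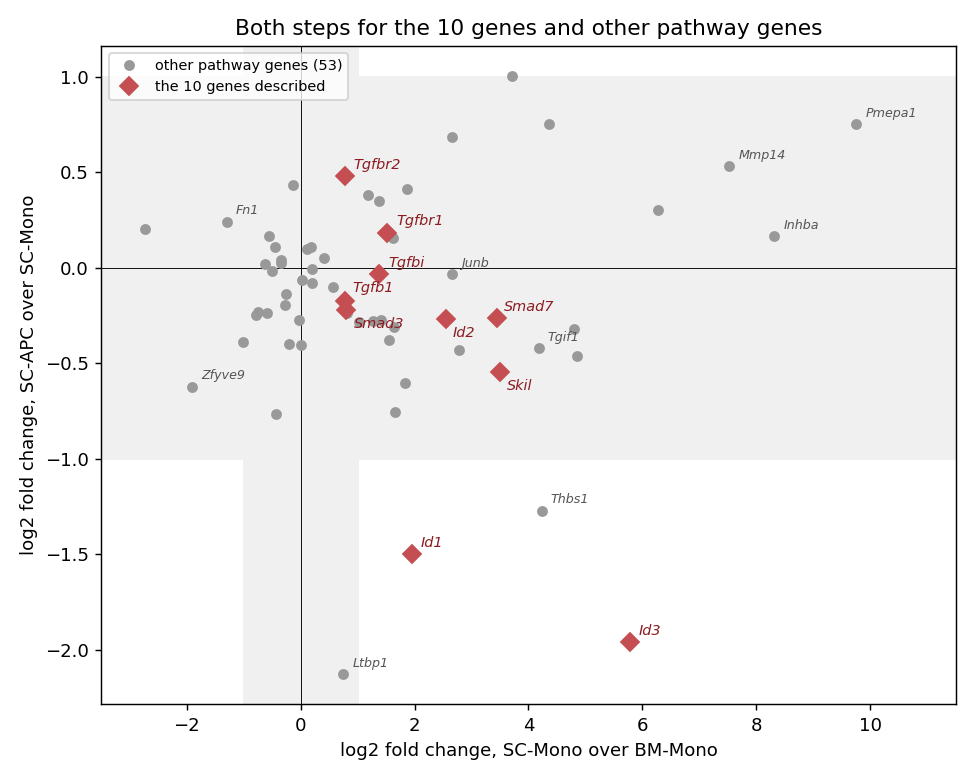
Log2 fold change from BM-Mono to SC-Mono (x axis) against that from SC-Mono to SC-APC (y axis) for the 10 genes (diamonds) and 53 other pathway genes above 3 TPM (circles), with less than a 2-fold change in grey. Both axes use the spinal cord monocyte library, in opposite sense, and Id1 and Id3 lie low on the right, at 1.95 and -1.50 and at 5.78 and -1.96.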

How the data were processed

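RNA of 3 sorted populations was sequenced as 1 pooled library each. Per the submitters' processing notes, Salmon 0.14.1 and mm10 were used, and the study's methods name GENCODE vM22 with the isoforms of each gene pooled. The authors deposited TPM, normalized for effective length and library size, and estimated counts of reads, which are not normalized. The deposited effective lengths (bases) were used for an alternative. The setting for strand is not given in the sources used here.

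The 22238 genes listed in every library were compared. They held 84.9% to 100.0% of the deposited TPM of a library, so TPM was set to 1 common sum. Estimated counts were rounded to whole reads. The study defines differential expression by GFold, which was not used here. Its rule of a fold change beyond 2 was computed anew: reads plus 1 were taken as gamma distributions, scaled by median-of-ratios size factors, and percentiles 1 and 99 of the log2 ratio were compared with a 2-fold change. TPM over 3 was also required in 1 of the 2 libraries, a threshold chosen here. The study's cut for active genes, on log2 TPM, corresponds to TPM over 4, which was run as an alternative. The calculation was tested on simulated counts that held counting error only, with large changes or none. That test covered neither variation between libraries nor changes near 2-fold. TPM intervals are Wilson intervals at 95%, and PCR copies are not independent molecules. Symbols and positions were read from GENCODE M21 (GRCm38), which holds 99.0% of the identifiers with their version, and 0 members overlapped another gene there. RefSeq promoters were those of GRCm38.p6.

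The 10 genes and the gene lists were chosen with earlier results of these data known. All 10 genes are named. Of the other 94 pathway genes, those called in any comparison could be named, with the most abundant of each list in SC-APC and the pathway gene nearest to each of the 10 by both log2 fold changes. Others named for contrast were chosen after their values were seen. The values of 1 target gene are not reported here, and it stands only in the counts and medians of its lists. Alternatives were total reads, TMM factors, reads per effective length, TPM over 4 or no threshold, an assumed variation between libraries (CV 0.2 or 0.4), a plain 2-fold change, and TPM as deposited. TMM factors came from edgeR 4.0.16 in R 4.3.3. All else was computed in Python 3.11.15 with scipy 1.17.1, numpy 2.4.6 and pandas 2.3.3 and drawn with matplotlib 3.10.9.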

Additional observations from a re-analysis of the deposited data

How the results depend on the processing

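The intervals of the 10 genes rest on counting alone, and the spread between mice is unknown, so an assumed spread was the alternative that changed most. With an added coefficient of variation of 0.2, 4 of the 10 genes were called higher in SC-Mono than in BM-Mono and 4 in SC-APC than in BM-Mono, and with 0.4 it was 3 and 2. From SC-Mono to SC-APC, 0 were then called lower with 0.2 and 0 with 0.4. Of the other pathway genes, 13 higher and 1 lower were called in SC-Mono against BM-Mono with 0.2, and 10 and 0 with 0.4. In SC-APC against SC-Mono 0 were lower with either, and in SC-APC against BM-Mono 2 were lower with 0.2, and 11 higher and 0 lower with 0.4. Of all genes, 906 higher and 449 lower were called in the first step with 0.2, and 598 and 203 with 0.4. In the second step these counts were 84 and 34, and 37 and 13. In SC-APC against BM-Mono 494 were lower with 0.2, and 689 higher and 202 lower with 0.4.

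With TPM over 4, the counts of the 10 genes were as with 3, at 7 higher from BM-Mono to SC-Mono, 2 lower from SC-Mono to SC-APC and 7 higher over both. With no threshold on TPM, 36 other pathway genes and 2623 of all genes were called higher from BM-Mono to SC-Mono, 1 and 385 from SC-Mono to SC-APC (292 lower), and 34 and 2870 in SC-APC against BM-Mono. Per effective length, 1 other pathway gene was called higher and 320 of all genes lower in the second step, and 8 other pathway genes lower in SC-APC against BM-Mono. A plain 2-fold change called 1 other pathway gene higher in the second step, with 326 of all genes higher and 302 lower. Scaling by total reads moved every log2 fold change by -0.18 from BM-Mono to SC-Mono and by 0.05 from SC-Mono to SC-APC. In the first step this scaling called 21 other pathway genes higher and 4 lower, beside 23 and 3 with size factors. From SC-Mono to SC-APC the sign turned for Tgfbi, to 0.0096 with total reads and 0.0727 per effective length, and for Smad3, to 0.50 per effective length, where the effective lengths differ. Of 180 fold changes of the 10 genes under the alternatives, 157 kept sign and side of the threshold, 19 lost a call, all with the added spread, and 1 gained it, Smad3 in SC-APC against BM-Mono per effective length. TPM as deposited lay outside the interval of the rescaled value for 19 of 30 values, all in the monocyte libraries, which were rescaled over part of their genes. No paired analysis was possible because each population has 1 library. Leaving out a library was not possible for the same reason.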
